A study of Mus musculus with 753 samples.

Results

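Epidermal identity is maintained by a small set of transcription factors, and the mRNA of 10 of them was followed here in keratinocytes that did or did not descend from Gata6-expressing cells. The genes were Trp63, Gata3, Ehf, Elf3, Klf4, Klf5, Grhl1, Ovol1, Lmo4 and Pou3f1, taken by name from the 25001 genes of the deposited table. All 10 passed the filter on low values and were among the 10672 genes tested. No mRNA of the 10 passed an adjusted p of 0.05 in any of 7 comparisons of days or lineages. Within that limit, Lmo4 had lower and Ehf higher levels in lin+ than in lin- cells of all 7 mouse sets. Of the 10672 genes tested, 183 (1.71%) were lower and 177 (1.66%) higher in all 7.

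The mice carried Gata6EGFPCreERT2 and a Rosa26-fl/STOP/fl-tdTomato reporter, each in 1 copy, and 4-hydroxytamoxifen was applied to the clipped back skin of every animal, unwounded skin included. Cells that expressed Gata6, which marks the sebaceous duct and the neighbouring upper follicle, then carried tdTomato together with their progeny. tdTomato-positive cells are lin+ and tdTomato-negative cells are lin-, so a Gata6-expressing cell that did not recombine counts as lin-. Full-thickness wounds were made in the back skin and sampled at days 6, 9 and 11, while day 0 is unwounded skin of mice that also gave the later wounds. Before the sort, cells were mixed with GFP-expressing carrier epidermis, which was removed by a GFP gate, and CD45 and Itga6 were stained. Each cell was sequenced with Smart-seq2, which reads whole transcripts and carries no molecular identifiers.

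The 684 annotated cells formed 14 sets, each of 1 lineage and 1 mouse set. Days 0, 9 and 11 had replicates 1 and 2, by the methods 1 mouse each, and the day 6 cells were taken as 1 set per lineage because their labels name no replicate, although by the methods they came from several mice. By the labels and the methods together, lin+ and lin- cells of a set pair were taken to come from the same skin. There were 351 lin+ cells, of which 258 came from wounds and 93 from unwounded skin. There were 333 lin- cells, of which 238 came from wounds and 95 from unwounded skin. Median reads per cell lay between 1806780 and 5967310 by set, and median detected genes between 1776 and 3228. Replicate 1 formed the first batch of 222 cells, deposited as read counts. Replicate 2 and day 6 formed the second batch of 462 cells, deposited as RPKM, reads per kilobase of gene and 1000000 reads. Every value was divided by its cell total, multiplied by 1000000 and averaged over the cells of a set. Levels are therefore counts per 1000000 reads (CPM) in the first batch and scaled RPKM in the second. They differ in unit, so levels are compared within a batch, and a range over both batches joins the 2 units.

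Krt14 and Krt5, keratins of epithelial basal cells, had reads in 89.6% and 82.0% of cells, and Ptprc, which encodes CD45, had reads in 1.75%. The deposited identities were interfollicular basal cells (IFE-B, 373 cells), outer bulge (OB, 121), upper follicle (uHF-I, 115; uHF-II, 15; uHF-III, 27), sebaceous gland (SG, 23) and differentiated interfollicular cells (IFE-DI, 8; IFE-DII, 2). Their markers followed these names for the most part. Krt79, an upper follicle keratin, had reads in 84.3% of uHF-I and 31.6% of IFE-B cells. Cd34, a bulge marker, had reads in 37.2% of OB and 3.22% of IFE-B cells. Krt10, a suprabasal keratin, had reads in 47.7% of IFE-B cells, so the label of basal cells did not go with an absence of suprabasal transcripts. Summed over the 4 upper follicle markers, lin+ sets had 18600 to 33590 (CPM or scaled RPKM) in wounds and 21620 to 36970 in unwounded skin. lin- sets had 2390 to 13870 in wounds and 3529 to 6207 in unwounded skin. The lineages therefore differed in upper follicle transcripts in every set, and the part of this difference in the results below was not tested. The 5 melanocyte markers summed to 6814 and 6491 in the lin- sets of days 9 and 11 of replicate 2, to 491 in the lin- set of day 6, and to at most 41.9 in the other 11 sets. A total of 5 lin- wound cells carried over 1000 CPM or scaled RPKM of these markers.

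The 10 factors have distinct places in skin biology. Trp63 encodes p63, which is needed for a stratified epithelium to form and for basal cells to renew. Gata3 takes part in epidermal barrier formation and in the inner root sheath of the hair. Lmo4 encodes a LIM-only adaptor that has no DNA binding of its own and joins other factors through LIM-domain-binding proteins. Ehf and Elf3 are epithelial factors of the ETS family. Klf4 drives late differentiation and the barrier, while Klf5 is linked to proliferating epithelial cells. Grhl1 is a Grainyhead-like factor that regulates desmosomal genes, Ovol1 is a zinc finger factor that restrains proliferation of differentiating cells, and Pou3f1 (also Oct6) is a POU factor of the suprabasal epidermis.

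The promoter next to Lmo4 is shown because this gene gave the steadiest lineage difference, and that of Elf3 because it was the rarest member. Each run is the 250 bases before an annotated start in RefSeq (GRCm38.p6), on the minus strand, 5′ to 3′. The window of Lmo4 is chr3:144205256-144205505 and ends next to the gene's outermost start (gene span 144188530 to 144205255). The window of Elf3 is chr1:135258473-135258722, next to the gene span of 135253574 to 135258472. Capitals mark, on either strand, GGAA (the core of ETS sites) and CACCC (a KLF core).
Lmo4: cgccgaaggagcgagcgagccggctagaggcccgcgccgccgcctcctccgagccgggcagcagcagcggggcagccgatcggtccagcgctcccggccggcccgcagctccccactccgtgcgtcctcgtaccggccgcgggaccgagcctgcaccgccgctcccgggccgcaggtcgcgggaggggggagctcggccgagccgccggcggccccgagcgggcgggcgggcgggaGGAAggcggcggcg
Elf3: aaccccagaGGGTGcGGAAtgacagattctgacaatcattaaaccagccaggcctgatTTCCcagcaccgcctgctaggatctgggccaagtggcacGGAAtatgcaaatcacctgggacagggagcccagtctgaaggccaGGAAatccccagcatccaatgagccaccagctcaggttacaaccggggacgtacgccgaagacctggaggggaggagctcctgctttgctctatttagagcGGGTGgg
The Lmo4 window held 1 match to GGAA and none to CACCC, and the Elf3 window held 4 and 2. GGAA occurs on either strand in 93.4% of 32817 promoter windows of this length and CACCC in 52.0%, so such matches are frequent anywhere. Neither window held AGATAA, which Gata3 and its relatives bind and which 9.99% of windows hold. Neither held AACCGGTT, the Grainyhead-like site, found in 0.116% of windows. Lmo4 has 2 further annotated starts, whose windows held 2 and 1 matches to GGAA and 2 each to CACCC. Of the 10 genes, 5 had a promoter entry.

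Levels of the 10 mRNAs were compared with one another in the second batch, where values are per length. Klf4 averaged 407 ± 252 scaled RPKM and Gata3 396 ± 215 (SD over 8 sets). Klf5 averaged 184 ± 77.9, Trp63 151 ± 38.6, Ovol1 109 ± 81.4, Lmo4 106 ± 57.5 and Grhl1 104 ± 37.0. Ehf averaged 50.8 ± 35.4, Pou3f1 32.4 ± 19.6 and Elf3 4.31 ± 5.76. Most neighbours in this order were not apart beyond their spread. Klf4 exceeded Gata3 in 4 of 8 sets, Ovol1 exceeded Lmo4 in 3 and Lmo4 exceeded Grhl1 in 5. Gata3 exceeded Klf5, Grhl1 exceeded Ehf, and Pou3f1 exceeded Elf3, in 7 of 8 sets each. A cell had reads of a median of 4 of the 10 genes, and 29 of 684 cells had reads of none. The median was 3 in the first batch and 4 in the second.

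**Figure D1:**
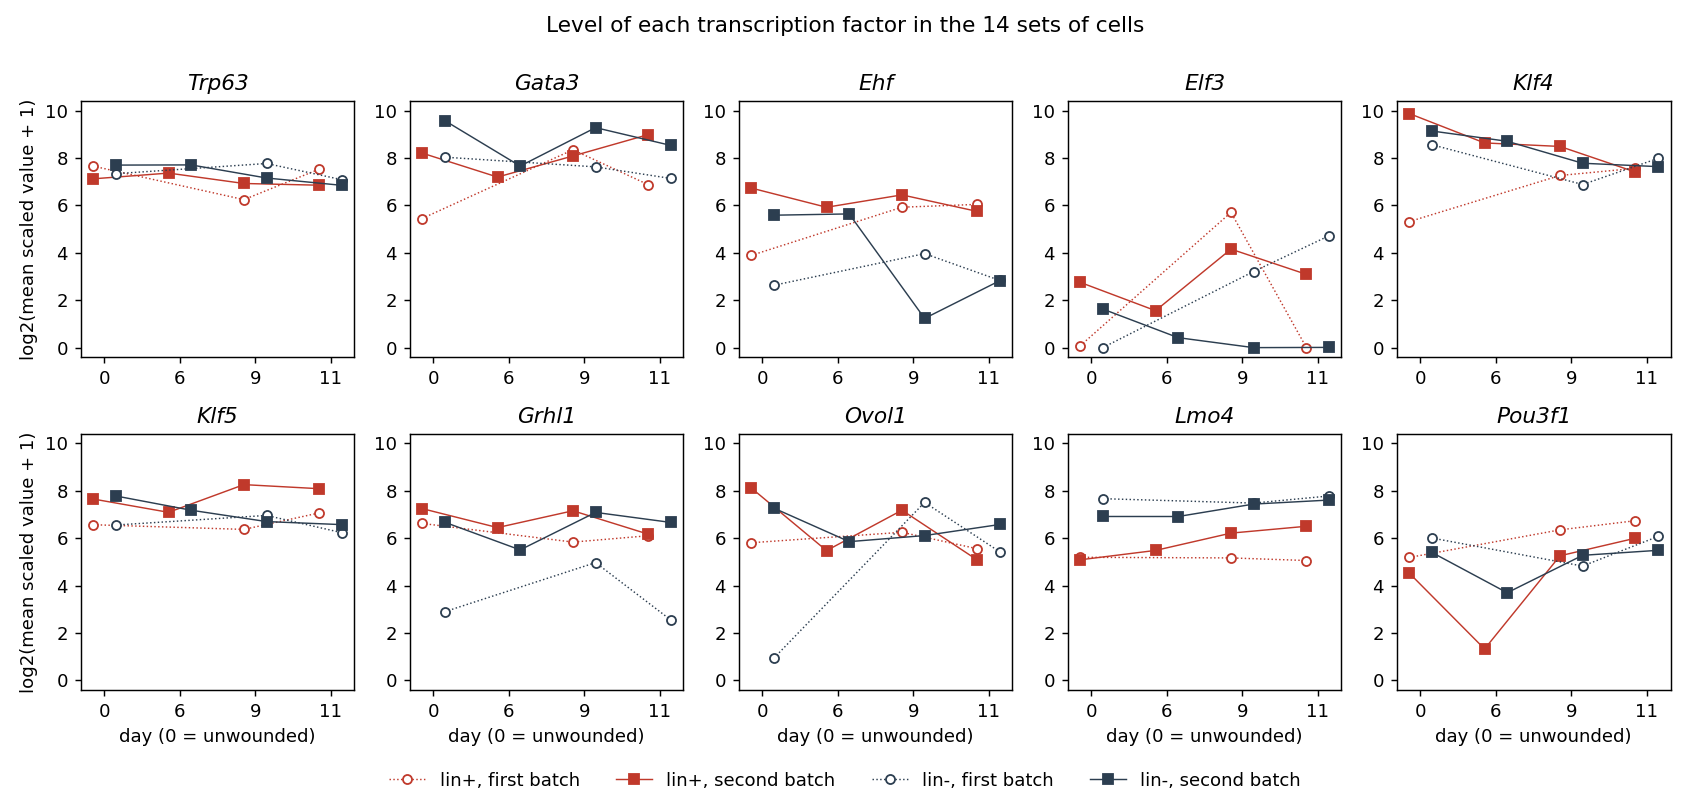
Level of each of the 10 mRNAs in the 14 sets, as log2 of (mean scaled value + 1), by day after wounding. lin+ sets are red and lin- sets dark, open circles are the first batch (CPM) and filled squares the second (scaled RPKM). Each point is 1 set of 26 to 93 cells. The lin+ points of Lmo4 lie below all lin- points, and the lin+ points of Ehf lie above the lin- points at days 6, 9 and 11.

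The mRNAs were unequally spread over the deposited identities. These identities were made from the same transcriptomes, so the shares are given as a description with no test. All shares count cells with at least 1 read, with exact (Clopper-Pearson) 95% intervals that cover counting error only. Ehf was most restricted. It had reads in 66.7% of uHF-II cells (10 of 15, interval 38.4 to 88.2) and 66.7% of uHF-III cells (18 of 27, 46.0 to 83.5), against 26.1% of uHF-I, 18.5% of IFE-B and 8.70% of SG cells. No OB cell of 121 had an Ehf read, which allows a share of up to 2.48%. OB cells of the second batch had a median of 2707800 reads and 2266 genes, against 3086380 reads and 3318 genes in uHF-II cells and 2518190 reads and 2633 genes in uHF-III cells. Among the 6 identities with more than 10 cells, Klf5, Grhl1 and Ovol1 also had their highest shares in these upper follicle cells. Klf5 had reads in 73.3% of uHF-II and 74.1% of uHF-III cells, against 46.6% of IFE-B, 16.5% of OB and 8.70% of SG cells. Grhl1 had reads in 73.3% of uHF-II and 66.7% of uHF-III cells, against 52.2% of SG (12 of 23, interval 30.6 to 73.2), 26.5% of IFE-B and 17.4% of OB cells, so that SG and uHF-III overlapped. Ovol1 had reads in 60.0% of uHF-II and 51.9% of uHF-III cells, against 16.1% of IFE-B and 9.09% of OB cells. No SG cell of 23 had an Ovol1 read, which allows a share of up to 13.0% by the same rule (exact upper limit 14.8%).

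Lmo4 had the opposite order. It had reads in 87.0% of SG cells (20 of 23, interval 66.4 to 97.2) and 67.8% of OB cells (82 of 121, 58.7 to 76.0), against 51.7% of IFE-B, 44.3% of uHF-I, 40.0% of uHF-II and 22.2% of uHF-III cells. Its mean level in the second batch was 188 scaled RPKM in OB and 159 in SG cells, against 98.3 in IFE-B, 32.0 in uHF-I, 3.33 in uHF-II and 19.5 in uHF-III cells. Trp63 was found in a similar share of most identities, with 70.0% of IFE-B, 73.6% of OB and 51.9% of uHF-III cells. Its level in the second batch was 244 scaled RPKM in OB and 135 in IFE-B cells, against 34.4 in uHF-II and 49.6 in uHF-III cells. Klf4 had reads in all 15 uHF-II cells and in 76.9% of OB cells, but in 3 of 23 SG cells (13.0%). Gata3 was found in 87.0% of SG and 71.6% of IFE-B cells, against 58.7% of OB and 51.9% of uHF-III cells. Pou3f1 was most frequent in IFE-B (44.0%) and uHF-II cells (46.7%) and least in SG cells (13.0%). Elf3 had reads in 24 of 684 cells, 17 of them IFE-B. The 10 differentiated interfollicular cells are too few to rank, although all 10 had reads of Gata3 and of Klf5.

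**Figure D2:**
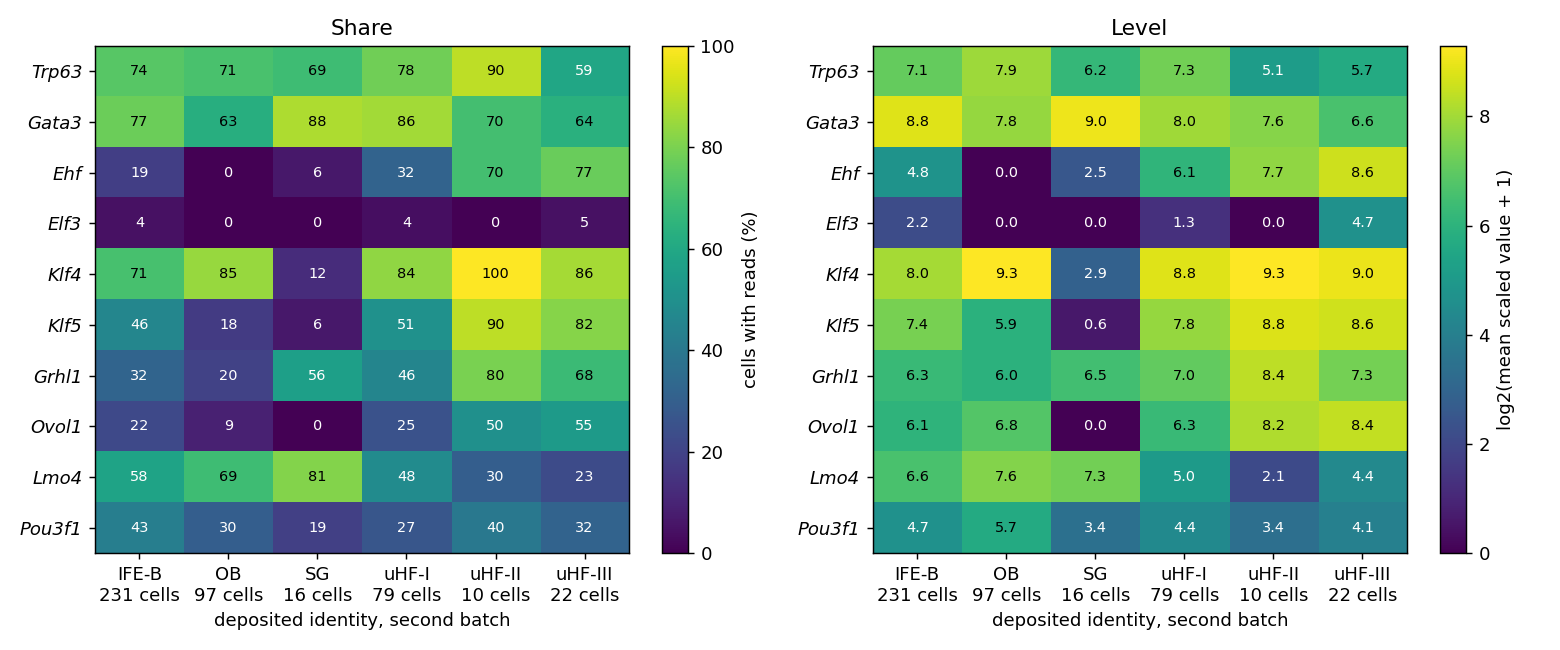
Share of cells with reads (left) and mean scaled RPKM (right) of each mRNA by deposited identity in the second batch, for identities with at least 10 cells. Ehf, Klf5, Grhl1 and Ovol1 are highest in the uHF-II and uHF-III columns, where Lmo4 is at 3.33 and 19.5 scaled RPKM against 188 in OB.

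Cells with Ehf reads also held other members more often. In the second batch, 76.5% of 98 cells with Ehf reads had Klf5 reads, against 33.8% of 364 cells without. In the first batch the shares were 55.6% of 36 and 36.0% of 186 cells. Grhl1 had reads in 57.1% of cells with Ehf and 30.8% of cells without in the second batch, and in 38.9% and 17.2% in the first. Ovol1 had reads in 39.8% and 17.3% in the second batch, and in 19.4% and 8.60% in the first. Lmo4 was the exception in the second batch, with reads in 49.0% of cells with Ehf and 59.3% of cells without, while the first batch had 52.8% and 42.5%. Cells with Ehf reads were deeper, with medians of 3014.5 and 3094.5 genes in the second and first batch, against 2498.5 and 2144 in cells without. The part of depth in this co-occurrence was not tested.

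The first question was how lin+ cells differed from lin- cells of the same skin, before and after wounding. None of the 10 mRNAs passed in unwounded skin, where 46 of 10672 genes did (0.431%, limma), or 491 without day 0 replicate 2. An unadjusted p under 0.05 was reached by 4 of the 10, against 1615 of all genes (15.1%). In wounds none passed, where 28 of all genes did (0.262%, limma), and 2 of the 10 had an unadjusted p under 0.05, against 761 of all genes (7.13%). edgeR on summed reads called none of the 10 in either comparison. It gave 2 and 3 of them an unadjusted p under 0.05, against 1128 (10.1%) and 446 (3.99%) of the genes it tested. The lineage difference itself was set between wounds and unwounded skin in an interaction term. That term passed for none of the 10, and for 2 of all genes (0.0187%, limma). Of the 10, 2 had an unadjusted p under 0.05 there, against 1209 of all genes (11.3%). edgeR called none of the 10 there and gave 1 an unadjusted p under 0.05, against 826 of the genes it tested (7.38%). The median log2 difference of the 10 was −0.094 in unwounded skin, against −0.031 over all genes, and 0.069 in wounds, against −0.014.

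Lmo4 was the member with the clearest lineage pattern. In the first batch it averaged 35.6, 35.0 and 32.3 CPM in lin+ cells of days 0, 9 and 11, against 202, 178 and 219 in lin- cells. In the second batch it averaged 33.0, 43.8, 73.2 and 89.7 scaled RPKM in lin+ cells of days 0, 6, 9 and 11, against 119.8, 119.7, 173 and 194 in lin- cells. The highest lin+ set lay below the lowest lin- set within each batch and over both units, the second as was the case for 13 of 10672 genes (0.122%), and Lmo4 was lower in lin+ in all 7 mouse sets, as were 183 genes (1.71%). The log2 difference was −2.15 ± 0.52 in unwounded skin (SE, adjusted p = 0.105, limma) and −1.76 ± 0.33 in wounds (adjusted p = 0.0809, limma). Neither passed. Within the first batch the differences were −2.47 and −2.52, and within the second −1.83 and −1.25. When the log was taken per cell before averaging, the wound difference was −1.47 and passed (adjusted p = 0.0236, limma), as did 176 genes (1.65%), and over all alternatives with a test the adjusted p of that difference lay between 0.0236 and 0.922.

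The share of cells with Lmo4 reads was also lower in lin+ in all 7 mouse sets, and in all 7 after thinning each cell to 500000 reads. How many of all genes had this order in share was not counted. In unwounded skin the Lmo4 share was 23.4% of 47 and 39.1% of 46 lin+ cells, against 51.1% of 47 and 68.8% of 48 lin- cells. In wounds it lay between 35.7% and 74.5% in lin+ sets, against 48.4% and 84.1% in lin- sets, so the wound shares overlapped between lineages. The lineages also differed in identity, and the part of identity in the Lmo4 difference was not tested. In sets of 26 to 93 cells, uHF-I cells numbered 6 to 26 in lin+, against 1 to 5 in lin- sets. OB cells numbered 1 to 15 in lin+ wound sets, against 5 to 22 in lin- wound sets. In unwounded skin OB cells numbered 3 and 5 in lin+ sets, against 7 and 11 in lin- sets. Among IFE-B cells alone the difference was −2.51 in unwounded skin (adjusted p = 0.144, limma) and −0.79 in wounds (adjusted p = 0.922, limma). Unwounded IFE-B cells averaged 22.3 CPM in lin+ (23 cells) and 204 in lin- (36 cells) in the first batch, and 34.7 and 134 scaled RPKM in 21 and 31 cells in the second. In wounds, 58.8% of 85 lin+ and 58.5% of 94 lin- IFE-B cells of the second batch had Lmo4 reads. The first-batch wound shares were 42.6% of 47 lin+ and 44.4% of 36 lin- IFE-B cells. By set, the lin+ share was the lower one at days 6 and 9 and the higher one at day 11. Pooled over days, the wound levels of IFE-B cells were still lower in lin+. They were 38.6 CPM and 85.8 scaled RPKM, against 95.7 CPM and 112 scaled RPKM in lin-. In the first batch lin+ had 37.8 and 39.9 CPM at days 9 and 11, against 133 and 43.1. In the second lin+ had 24.3, 130 and 167 scaled RPKM at days 6, 9 and 11, against 58.0, 180 and 209. The change of the lineage difference with wounding among IFE-B cells was 1.71 and did not pass (adjusted p = 0.473, limma). Of the 5 cells rich in melanocyte markers 2 had Lmo4 reads, and without them the lin- levels of days 6, 9 and 11 of the second batch were 121, 177 and 203. In a set mean, fewer cells that transcribe a gene and less RNA per cell cannot be told apart.

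**Figure D3:**
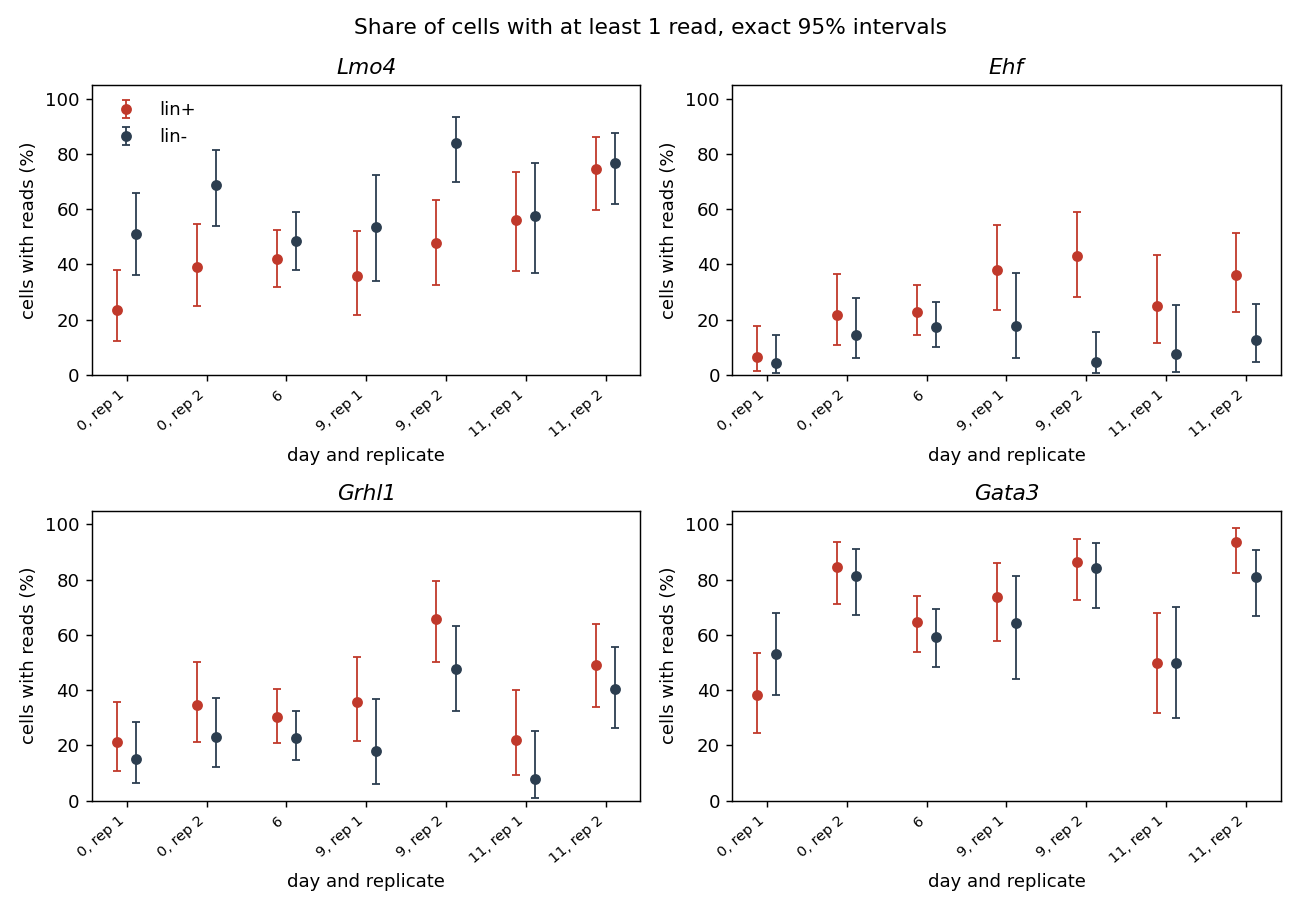
Share of cells with reads of Lmo4, Ehf, Grhl1 and Gata3 in each set, in percent, by day and replicate, with exact 95% intervals that cover counting error only. lin+ is drawn left of lin- in each pair. The lin+ share is the lower one for Lmo4 and the higher one for Ehf and Grhl1 in all 7 pairs. How many of all genes did so was not counted.

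Of the ETS factors, Ehf was higher in lin+ in all 7 mouse sets, as were 177 of all genes (1.66%). In the first batch it averaged 13.8, 59.6 and 64.9 CPM in lin+ cells of days 0, 9 and 11, against 5.19, 14.6 and 6.12 in lin- cells. In the second batch it averaged 105, 59.6, 86.0 and 52.6 scaled RPKM in lin+ cells of days 0, 6, 9 and 11, against 47.0, 48.9, 1.35 and 6.10 in lin- cells. Over both units, the 5 lin+ wound sets all lay above the 5 lin- wound sets, which held for 50 of all genes (0.469%), with the closest values at day 6. The log2 difference was 2.71 ± 0.63 in wounds (adjusted p = 0.193, limma) and 1.20 ± 0.99 in unwounded skin (adjusted p = 0.603, limma). Within the first batch the wound difference was 2.58 and within the second 2.80. It passed when the log was taken per cell (1.54, adjusted p = 0.00614, limma, 1.65% of genes called), and its adjusted p over the alternatives lay between 0.00614 and 0.892.

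Ehf reads were found in 31.4% of lin+ and 13.0% of lin- wound cells, and in 14.0% of lin+ and 9.47% of lin- cells of unwounded skin. By set, the wound shares lay between 22.6% and 43.2% in lin+, against 4.55% and 17.9% in lin-, and did not overlap. The lin+ share was the higher one in 7 of 7 mouse sets, and in 6 of 7 after thinning. How many of all genes met either order in share was not counted. The unwounded levels of the first batch rested on few cells, since 1 of 3 lin+ cells with reads carried 99.7% of the set's Ehf value and 1 of 2 lin- cells 87.6%. Among IFE-B cells alone the difference was 1.61 in wounds (adjusted p = 0.892, limma) and reversed to −2.73 in unwounded skin (adjusted p = 0.336, limma). In the uHF-I cells of unwounded skin, Ehf had reads in none of 17 lin+ cells of the first batch (which allows up to 17.6%) and 7 of 17 of the second. Elf3 was too rare to compare. Its reads occurred in 19 of 351 lin+ and in 5 of 333 lin- cells, and in no cell of 3 sets (lin+ day 11 replicate 1, lin- day 0 replicate 1 and lin- day 9 replicate 2), which allows shares of up to 9.38%, 6.38% and 6.82%. In 7 of the 11 other sets 1 cell carried its whole value, and its log2 differences of 0.60 ± 1.82 and 1.23 ± 1.15 in unwounded skin and wounds had standard errors of about their own size or larger.

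Grhl1 had reads in a higher share of lin+ than of lin- cells in all 7 mouse sets, thinned or not. As for Lmo4 and Ehf, the number of all genes with such an order in share was not counted. The Grhl1 shares lay between 21.3% and 65.9% in lin+ sets, against 7.69% and 47.7% in lin- sets, and overlapped between sets. In the first batch its level was 97.5, 56.1 and 67.8 CPM in lin+ cells of days 0, 9 and 11, against 6.46, 30.4 and 4.83 in lin- cells. In the second batch it was 151, 86.3, 142 and 70.9 scaled RPKM in lin+ cells of days 0, 6, 9 and 11, against 101, 44.5, 135 and 100.4 in lin- cells. lin+ had the higher level in 6 of 7 pairs, and day 11 of the second batch had the opposite order. The number of all genes at 6 of 7 in level was not counted. The log2 difference was 2.15 ± 0.95 in unwounded skin (adjusted p = 0.319, limma) and 0.99 ± 0.60 in wounds (adjusted p = 0.827, limma), with within-batch values of 3.72 and 0.58 before and 2.21 and 0.17 after wounding.

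Gata3 had lower levels in lin+ than in lin- cells in both unwounded pairs, while its wound sets overlapped between lineages. Unwounded lin+ cells averaged 42.6 CPM in the first batch and 294 scaled RPKM in the second, against 261 and 763 in lin- cells. In wounds of the first batch lin+ cells averaged 324 and 116 CPM at days 9 and 11, against 196 and 140 in lin- cells. In wounds of the second batch lin+ cells averaged 145, 270 and 506 scaled RPKM at days 6, 9 and 11, against 201, 620 and 368 in lin- cells. The log2 difference was −1.98 ± 0.48 in unwounded skin (adjusted p = 0.111, limma) and −0.15 ± 0.31 in wounds (adjusted p = 0.976, limma). The difference between these values was 1.83 ± 0.57 and did not pass (adjusted p = 0.325, limma). The share of cells with Gata3 reads did not repeat the level: it was 38.3% and 84.8% in unwounded lin+ cells, against 53.2% and 81.2% in lin- cells.

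Ovol1 and Klf4 depended on a single mouse set. Unwounded lin+ cells averaged 55.0 CPM and 278 scaled RPKM of Ovol1 in the first and second batch, against 0.913 and 153 in lin- cells. Its log2 difference was 2.86 ± 0.89 in unwounded skin (adjusted p = 0.171, limma) and −0.39 ± 0.56 in wounds (adjusted p = 0.945, limma). The difference between these was −3.25 ± 1.05 (adjusted p = 0.342, limma). Without day 0 replicate 2 both passed, at 4.87 (adjusted p = 0.0230, limma) and −5.25 (adjusted p = 0.0353, limma), resting on the first-batch lin- set at 0.913, where 3 of 47 cells had reads. Of all genes 4.74% and 2.38% passed in that setting. Klf4 averaged 38.8 CPM and 938 scaled RPKM in unwounded lin+ cells, against 376 and 562 in lin- cells, so the batches had opposite orders. Its log2 difference was −1.25 ± 0.71 in unwounded skin (adjusted p = 0.443, limma) and 0.075 ± 0.45 in wounds (adjusted p = 0.993, limma). Without day 0 replicate 2, the unwounded difference was −3.25 (adjusted p = 0.0125, limma) and its change with wounding 3.33 (adjusted p = 0.0273, limma), and without day 0 replicate 1 they were 0.74 and −0.66.

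The lineage differences of Trp63, Klf5 and Pou3f1 did not pass. Over both units, Trp63 lay between 74.7 and 201 in lin+ sets, against 114 and 217 in lin- sets, and its log2 differences were −0.13 ± 0.49 and −0.33 ± 0.31 in unwounded skin and wounds. Its share of cells with reads was 70.7% of lin+ and 68.8% of lin- cells. Klf5 reads were found in 51.2% of lin+ wound cells, against 34.5% of lin- wound cells, with lin+ sets between 32.3% and 72.7% and lin- sets between 31.2% and 40.9%. Its level differed by 0.65 ± 0.35 in wounds (adjusted p = 0.785, limma), with 0.12 within the first batch and 1.00 within the second. Pou3f1 differed by −0.85 ± 0.84 in unwounded skin (adjusted p = 0.669, limma) and by 0.063 ± 0.53 in wounds (adjusted p = 0.993, limma).

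The second question was whether these mRNAs changed after wounding in each lineage. At days 9 and 11 against day 0, none of the 10 passed in lin+ cells, where 10 genes did (0.0937%, limma), or in lin- cells, where 20 did (0.187%, limma). One of the 10 in lin+ and none in lin- had an unadjusted p under 0.05, against 1071 (10.0%) and 1363 (12.8%) of all genes. At day 6 none passed in lin+, where no gene did (0.0%, limma), or in lin-, where 4 did (0.0375%, limma), and 1 of the 10 in each had an unadjusted p under 0.05, against 460 (4.31%) and 638 (5.98%) of all genes. edgeR called none of the 10 in these 4 comparisons and gave 0, 0, 1 and 1 an unadjusted p under 0.05. Of the genes it tested, 790, 979, 390 and 466 reached that p (3.49% to 8.75%). The median log2 difference of the 10 at days 9 and 11 was 0.47 in lin+, against 0.15 over all genes, and −0.30 in lin-, against 0.12. These comparisons share the day 0 sets with those of day 6. Day 6 is 1 set per lineage, so its SE and p take the spread of the other groups. A p that misses the threshold does not show that levels were alike.

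Pou3f1 had the largest log2 difference with time of the 10, at day 6 in lin+ cells. In the first batch it averaged 35.4, 80.7 and 106 CPM in lin+ cells of days 0, 9 and 11. In the second batch it averaged 22.1, 1.51, 37.3 and 63.0 scaled RPKM in lin+ cells of days 0, 6, 9 and 11. lin- cells averaged 63.4, 27.3 and 66.4 CPM, and 41.3, 12.0, 37.8 and 43.9 scaled RPKM, at the same days. The day 6 sets were the lowest of the second batch in both lineages. The share of lin+ cells with Pou3f1 reads at days 0, 9 and 11 was 23.4%, 54.8% and 62.5% in the first batch. At days 0, 6, 9 and 11 of the second batch it was 19.6%, 15.1%, 54.5% and 59.6%. The 4 lin+ sets of days 9 and 11 thus stood above the 3 earlier ones in share, also after thinning (49.7% to 62.5%, against 8.74% to 18.4%). How many of all genes separated these sets in share was not counted. The median number of genes per lin+ cell was higher at days 9 and 11 as well, at 2667.5 to 3108, against 1776 to 2308 at days 0 and 6. In lin- cells the shares were 27.7%, 28.6% and 38.5% in the first batch and 39.6%, 24.7%, 52.3% and 59.6% in the second. In level, lin+ cells differed by 1.23 ± 0.64 at days 9 and 11 (adjusted p = 0.551, limma) and by −3.26 ± 0.92 at day 6 (adjusted p = 0.853, limma). With the log taken per cell, the value at days 9 and 11 was 2.40 and passed (adjusted p = 0.00201, limma), in a setting where 1582 genes did (14.8%), 1574 of them higher and 8 lower.

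Gata3 was the member with an unadjusted p under 0.05 in lin+ cells at days 9 and 11. Its first-batch levels in lin+ cells were 42.6, 324 and 116 CPM at days 0, 9 and 11, and its second-batch levels 294, 145, 270 and 506 scaled RPKM at days 0, 6, 9 and 11. Day 0 was the lowest time point in the first batch but not in the second. The log2 difference at days 9 and 11 was 1.25 ± 0.52 in lin+ (adjusted p = 0.442, limma) and −0.66 ± 0.52 in lin- cells (adjusted p = 0.627, limma). At day 6 it was −0.40 ± 0.76 in lin+ (adjusted p = 0.9997, limma) and −1.91 ± 0.76 in lin- cells (adjusted p = 0.763, limma). lin- cells averaged 763, 201, 620 and 368 scaled RPKM at days 0, 6, 9 and 11, with the lowest value at day 6.

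Klf5 in lin+ cells had shares of 19.1%, 45.2% and 65.6% at days 0, 9 and 11 of the first batch and 50.0%, 32.3%, 72.7% and 63.8% at days 0, 6, 9 and 11 of the second. Its levels were 93.9, 81.8 and 133 CPM and 200.4, 135, 306 and 271 scaled RPKM at the same days. In the first batch the shares at days 9 and 11 lay above that of day 0 while the level of day 9 did not, and in the second batch both measures were higher at days 9 and 11. The log2 difference in level was 0.34 ± 0.50 (adjusted p = 0.846, limma). With the log taken per cell Klf5 (1.99, adjusted p = 0.0226, limma), Gata3 (2.39, adjusted p = 0.0181, limma) and Ehf (1.45, adjusted p = 0.0186, limma) passed in lin+ cells at days 9 and 11, again among the 14.8% of genes called there, nearly all of them higher. Lmo4 at days 9 and 11 differed from day 0 by 0.59 ± 0.56 in lin+ (adjusted p = 0.739, limma) and 0.29 ± 0.56 in lin- cells (adjusted p = 0.855, limma). Trp63 differed by −0.50 ± 0.45 and −0.31 ± 0.45 in lin+ and lin- cells.

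Ehf differed by 0.73 ± 1.07 in lin+ and −1.39 ± 1.07 in lin- cells at days 9 and 11, and Klf4 by 0.084 ± 0.77 and −1.28 ± 0.77. Grhl1 differed by −0.62 ± 0.82 and 0.53 ± 0.82, and Elf3 by 1.82 ± 1.62 and 1.17 ± 1.62. Each of these was smaller than 2 standard errors. Ovol1 differed by −0.95 ± 1.16 in lin+ and 2.30 ± 1.16 in lin- cells (adjusted p = 0.428, limma), and the second passed without day 0 replicate 2 (5.44, adjusted p = 0.0176, limma, 1.91% of genes called) and was −0.84 without day 0 replicate 1. The levels of Ovol1 in lin- cells were 0.913, 181 and 41.8 CPM at days 0, 9 and 11, against 153, 56.9, 68.1 and 94.7 scaled RPKM at days 0, 6, 9 and 11.

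**Figure D4:**
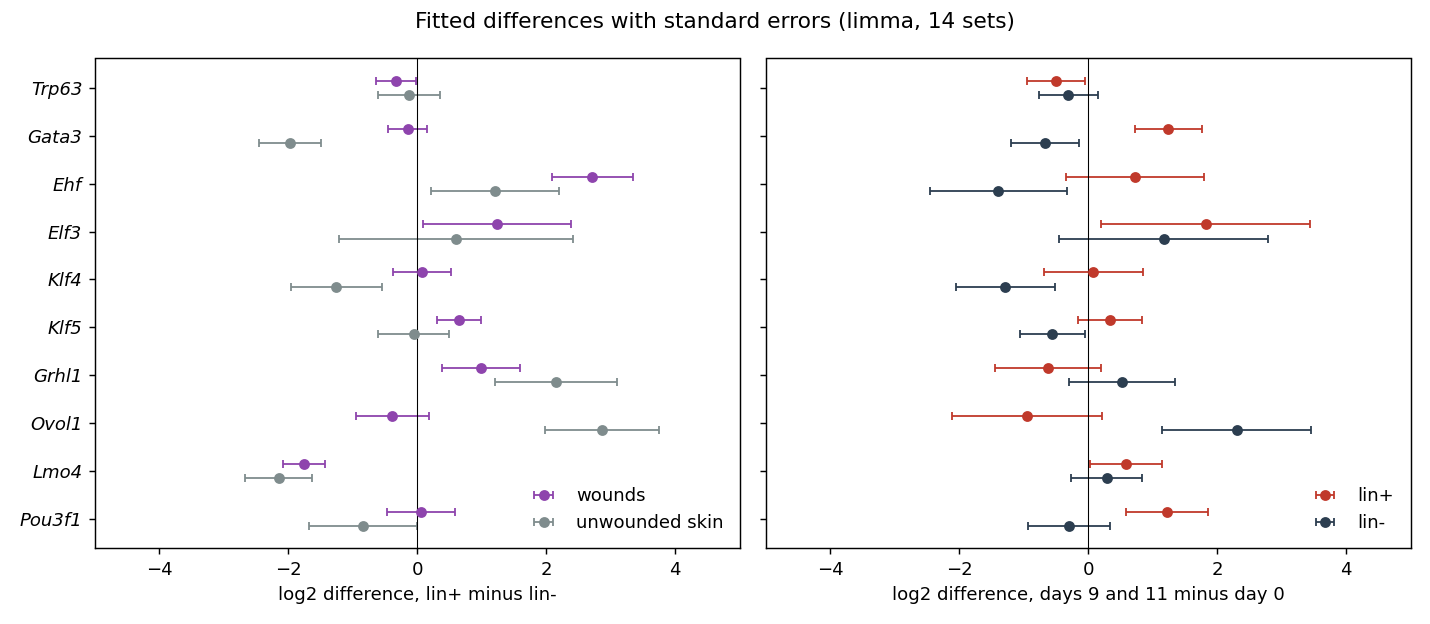
log2 difference ± SE of each mRNA, from limma. Left, lin+ minus lin- in wounds and in unwounded skin. Right, days 9 and 11 minus day 0 in lin+ and in lin- cells. No difference passed an adjusted p of 0.05. Lmo4 is at −1.76 and −2.15 on the left and Ehf at 2.71 and 1.20.

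Other genes of epidermal regulation were taken from lists of related factors and of their known targets, beside which the counts over all genes are those given above. Of 26 tested among 30 other epidermal transcription factors, 1 passed, Dlx3, a homeobox factor of the hair and differentiating epidermis. It was lower in lin+ wound cells (log2 difference −4.14 ± 0.69, adjusted p = 0.0455, limma), at 0 to 7.23 in lin+ wound sets against 8.52 to 100.4 in lin- wound sets, over both units. Its difference did not pass without day 6, either replicate of day 9 or either replicate of day 11 (adjusted p = 0.0944 to 0.247, limma). Of 17 hair follicle transcription factors, Tbx1 passed and was lower in lin+ cells of unwounded skin (−5.47 ± 0.59, adjusted p = 0.0046, limma) and of wounds (−3.12 ± 0.37, adjusted p = 0.00669, limma). The wound value of Tbx1 did not pass without day 9 replicate 1, day 9 replicate 2 or day 11 replicate 2 (adjusted p = 0.0501, 0.0752 and 0.0803, limma). edgeR called none of these 3 differences of Dlx3 and Tbx1. The unwounded value of Tbx1 did not pass with a pseudocount of 10 (−3.06, adjusted p = 0.0558, limma) or no trend (adjusted p = 0.0541, limma). Nor did it pass among IFE-B cells alone (−4.39, adjusted p = 0.170, limma) or with the log taken per cell (−0.47). Its lin+ sets were at 2.52 CPM and 0 scaled RPKM, against 137 CPM and 49.0 scaled RPKM in lin- sets. With lin+ at or near 0 that value depends on the pseudocount. Of 18 tested among 25 suprabasal and cornified genes, Ivl, which encodes involucrin, passed in unwounded skin (6.59 ± 1.10, adjusted p = 0.0389, limma), with 146 CPM and 65.1 scaled RPKM in lin+ sets against 0 CPM and 0.0496 scaled RPKM in lin- sets. With lin- at or near 0 this fitted value depends on the pseudocount, and it did not pass with edgeR (adjusted p = 0.185) or without day 0 replicate 1, day 6, day 9 replicate 1 or day 11 replicate 2 (adjusted p = 0.0785 to 0.117, limma). No gene passed among 24 tested of 25 basal layer and p63 target genes, or among 6 tested of 8 LIM cofactors, in any of the 7 comparisons. In the basal layer list, 7 of 24 genes had an unadjusted p under 0.05 in unwounded skin and the median log2 difference was −0.82, against −0.031 over all genes. In lin- cells at days 9 and 11 the median of that list was −0.96, against 0.12 over all genes, with 2 of 24 differences above 0 and 4 at an unadjusted p under 0.05. In lin+ cells it was −0.094, against 0.15. In wounds the median of the suprabasal list was 1.05 against −0.014 over all genes, and 9 of its 18 genes had an unadjusted p under 0.05. In these 5 lists no gene passed at days 6, 9 or 11 against day 0 (limma), with 0 to 7 genes of a list at an unadjusted p under 0.05.

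The genes whose levels varied most like a member over the 14 sets, after the mean of each batch was taken off, are given as a description with Pearson's r. The sets share lineages, mice and depth. For Lmo4 they were Mfap2 (r = 0.98) and Arxes2 (0.93), and for Ehf Skint1 (0.90) and Ptgs1 (0.86). For Gata3 they were Faf2 (0.90) and Khdrbs1 (0.88), and for Trp63 Gon4l (0.87) and Arpp19 (0.86). For Klf4 they were Myo1d (0.92) and Lamp2 (0.91), and for Klf5 Ubxn1 (0.79) and Msantd4 (0.77). For Grhl1 they were Dusp19 (0.92) and Epb41l5 (0.88), for Ovol1 Pigx (0.96) and Usp39 (0.93), for Pou3f1 Dvl3 (0.88) and Klf13 (0.82), and for Elf3 Agap3 (0.90) and Blcap (0.86). No member was among the pairs named.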

How the data were processed

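Single keratinocytes of 753 samples, 6 of them blank wells, were sequenced by the authors with Smart-seq2, and the 684 cells of their annotation were used here, while the others were not analysed. Per the labels, reads were trimmed with Trimmomatic (0.27), aligned with STAR (2.2) to GRCm38 (mm10), assigned to RefSeq genes with featureCounts and processed in Seurat (3.2.2). In the combined table the authors deposited read counts for the first batch and, as found from the values, RPKM for the second. Reads of the second batch were recovered from the deposited RPKM (99.97% of values whole within 0.02 reads, mean over cells with at least 200 genes). They served for shares, thinning, edgeR and the alternative with length scaling in both batches. Of the annotated cells, 4 had fewer than 200 genes. No cell name occurred in more than 1 set. Of the genes, 19640 had values in both batches, 347 of them merged over 2 symbols. Other tables held 1048 further columns of single samples, which were left out.

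Set means of values scaled to the cell total were then normalised in each batch by median ratios over genes above 5 in every set, which shifted sets by −0.22 to 0.23 on the log2 scale. Genes at 10 or more in at least 2 of 14 sets were tested with limma (3.58.1, trend) in R (4.3.3) on log2(value + 1), where a pseudocount of 1 understates differences of low genes. Day comparisons carried the batch as covariate, and lineage comparisons the mouse set as block, each with 5 residual degrees of freedom. p-values were adjusted by Benjamini-Hochberg over 10672 genes in each of 7 comparisons. In day comparisons they measure the spread between sets of the same lineage and day, after the batch term. In lineage comparisons they measure how the lin+ minus lin- difference varied between mouse sets, with all wound days in 1 coefficient. Each set counts alike whatever its cells. Cells are not replicates. Day 0 skin and later wounds shared mice by the methods. Which mouse gave which is not labelled, and the fit treats them as independent. The pairing of lineages was inferred from the day and replicate in the labels together with the methods. Deviations of paired sets correlated at −0.21 to −0.011. The fits were tested on simulated data with 200 changed genes in each comparison except the interaction. A log2 change of 2 was recovered in 0% to 8% of cases in the day comparisons and lineage in unwounded skin. For lineage in wounds the value was 46%. A log2 change of 4 was recovered in 10% to 38% of cases and in 78% for lineage in wounds. False calls numbered 1 to 8. Changes of these sizes can therefore be missed often.

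The members and the lists were chosen with earlier results of these data known. All members are named, with up to 4 passing genes per list and comparison and the 2 genes most correlated with each member. Alternatives were another pseudocount, no filter, no scaling, the log per cell, edgeR (4.0.16), IFE-B cells alone, no trend, other blocks and each mouse set left out. A further 3 were added after seeing the data: cells with at least 500 genes, for levels and for shares, and length scaling in both batches. Shares have exact 95% intervals, and a share of 0 allows 3 cells of the total. Promoters come from RefSeq (GRCm38.p6).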

Additional observations from a re-analysis of the deposited data

How the results depend on the processing

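No member passed in the tests as reported. Of 1170 values of the 70 member differences under alternatives with a test, 1075 had the same direction and side of the threshold, 84 reversed (39 differences) and 11 passed the threshold, all 11 given beside their genes above. The cause of each difference between settings was not tested.

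The count of genes called was 10, 20, 0 and 4 for lin+ and lin- days 9 and 11 and lin+ and lin- day 6, and 46, 28 and 2 for lineage in unwounded skin, lineage in wounds and their interaction. With a pseudocount of 10 it was 1 (lin+ days 9 and 11), 12 (lin- days 9 and 11), 15 (lin- day 6), 5 (lineage in unwounded skin) and 0 (interaction). With no filter it was 1 (lin+ days 9 and 11), 5 (lin- days 9 and 11), 121 (lin+ day 6), 320 (lin- day 6), 16 (lineage in unwounded skin), 4 (lineage in wounds) and 6 (interaction). With the log taken per cell it was 1582 (lin+ days 9 and 11), 1991 (lin- days 9 and 11), 2 (lin+ day 6), 2 (lin- day 6), 21 (lineage in unwounded skin), 176 (lineage in wounds) and 0 (interaction). With edgeR on summed reads it was 1 (lin+ days 9 and 11), 3 (lin- days 9 and 11), 2 (lin- day 6), 17 (lineage in unwounded skin) and 2 (lineage in wounds). With no trend it was 0 (lin+ days 9 and 11), 0 (lin- days 9 and 11), 0 (lin- day 6), 0 (lineage in unwounded skin), 7 (lineage in wounds) and 0 (interaction). With length scaling in both batches (chosen after seeing the data) it was 3 (lin+ days 9 and 11) and 4 (lin- days 9 and 11). With IFE-B cells alone it was 10 (lin- days 9 and 11), 1 (lin+ day 6), 2 (lin- day 6), 2 (lineage in unwounded skin), 0 (lineage in wounds) and 0 (interaction). With cells with at least 500 genes (chosen after seeing the data) it was 1 (lin- day 6). Leaving out each mouse set gave 0 to 328 (lin+ days 9 and 11), 0 to 198 (lin- days 9 and 11), 0 to 15 (lin+ day 6), 1 to 12 (lin- day 6), 13 to 491 (lineage in unwounded skin), 8 to 35 (lineage in wounds) and 0 to 246 (interaction), with all highest values except that of lineage in wounds (without day 0 replicate 1) coming without day 0 replicate 2.

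Reversed log2 differences were as follows. With the log taken per cell they were Trp63 1.21, Klf4 −0.12, Grhl1 0.90 and Ovol1 0.12 (lin+ days 9 and 11), Trp63 1.01, Gata3 0.32 and Pou3f1 0.78 (lin- days 9 and 11), Trp63 −0.32, Elf3 −0.086, Klf4 −0.96 and Lmo4 −0.17 (lin+ day 6), Trp63 −0.65 and Ovol1 −0.65 (lin- day 6), Gata3 0.32 and Ovol1 0.0075 (lineage in wounds) and Trp63 0.22 (interaction). With a pseudocount of 10 they were Klf4 −0.0046 (lin+ days 9 and 11) and Elf3 0.0901 (lin- day 6). With edgeR on summed reads they were Klf4 −0.87 (lin+ days 9 and 11), Ehf −0.13, Elf3 −0.81, Klf4 −0.44 and Lmo4 −0.028 (lin+ day 6), Trp63 −0.19 and Ovol1 −0.25 (lin- day 6), Pou3f1 −0.11 (lineage in wounds) and Trp63 0.077 (interaction). With IFE-B cells alone they were Klf4 −0.48, Klf5 −0.13 and Ovol1 0.56 (lin+ days 9 and 11), Elf3 −0.16 and Lmo4 −0.67 (lin- days 9 and 11), Trp63 −0.49 and Lmo4 −0.52 (lin+ day 6), Trp63 −0.18 (lin- day 6), Ehf −2.73 and Ovol1 −1.20 (lineage in unwounded skin), Trp63 0.043, Gata3 0.0046, Klf4 −0.23 and Pou3f1 −0.032 (lineage in wounds) and Trp63 0.19 (interaction). With no scaling of sets they were Trp63 −0.075 (lin+ day 6). With cells with at least 500 genes (chosen after seeing the data) they were Pou3f1 −0.051 (lineage in wounds).

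For differences that reversed without 1 mouse set, most extremes came without a day 0 set. For lin+ days 9 and 11 the range was −1.01 to 2.47 for Ehf, −0.32 to 3.96 for Elf3, −1.99 to 2.17 for Klf4, −1.25 to 0.024 for Grhl1 and −2.08 to 0.18 for Ovol1. For lin- days 9 and 11 the range was −3.19 to 0.40 for Ehf, −0.44 to 2.78 for Elf3, −0.41 to 1.46 for Grhl1, −0.84 to 5.44 for Ovol1 and −0.38 to 0.94 for Lmo4. For lin+ day 6 the range was −0.063 to 0.24 for Trp63, −1.01 to 0.54 for Gata3, −0.81 to 2.68 for Ehf, −1.20 to 3.09 for Elf3, −1.24 to 2.93 for Klf4 and −0.26 to 0.40 for Lmo4. For lin- day 6 the range was −1.21 to 2.01 for Elf3, −1.17 to 0.71 for Grhl1 and −1.42 to 4.88 for Ovol1. For lineage in unwounded skin the range was −0.58 to 0.32 for Trp63, −3.25 to 0.74 for Klf4 and −0.13 to 0.013 for Klf5. For lineage in wounds the range was −0.36 to 0.12 for Gata3, −0.081 to 0.19 for Klf4 and −0.29 to 0.67 for Pou3f1. For interaction the range was −0.64 to 0.25 for Trp63, −0.11 to 2.11 for Elf3, −0.66 to 3.33 for Klf4 and −2.73 to 0.42 for Grhl1. The values of Lmo4 kept their sign without every mouse set in both lineage comparisons, and so did those of Ehf.

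With no replicate block the lineage counts were 57, 24 and 2, and with the mouse set as a random block the counts of day comparisons were 10, 18, 0 and 4. The pairing changed no member's call. Leaving out day 6 gives no value for the day 6 comparisons, and first-batch values exist for no day 6 comparison. With 2 sets per lineage in unwounded skin and 1 at day 6, the absence of calls there does not show that levels were alike.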
